A study of Homo sapiens with 6 samples.

Results

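The genes described here are 9 genes of MHC class I antigen presentation, chosen by name: B2M, HLA-B, HLA-C, HLA-E, TAP1, TAP2, TAPBP, ERAP1 and NLRC5. All 9 were found among the 27420 genes of the expression table, where TAP2 has 2 rows and the row with the higher mean was taken. Expression was measured by RNA-seq in A673 and SKNMC, established Ewing sarcoma cell lines. Each line was treated for 6 h with 50 nM THZ1, with 200 nM THZ1 or with the vehicle DMSO, and each of the 6 conditions has 1 library. THZ1 is a covalent inhibitor of CDK7, a kinase that phosphorylates RNA polymerase II early in transcription. The comparisons address how the messages of the class I pathway stood after this block, and how the lines differed with DMSO alone. No added agent other than THZ1 or DMSO is named, and each line is 1 culture model, grown outside the tumour's tissue. Without replicates there is no spread to measure a difference by, and the values below come with no error and no p-value.

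MHC class I molecules display peptides from inside the cell to CD8 T cells and natural killer cells. A heavy chain, such as HLA-B, HLA-C or the non-classical HLA-E, pairs with the light chain beta-2-microglobulin, made from B2M. Peptides cut by the proteasome are pumped into the endoplasmic reticulum by the TAP1-TAP2 transporter, trimmed by the aminopeptidase ERAP1 and loaded onto the heavy chain with the help of tapasin, made from TAPBP. NLRC5 is the coactivator that acts on class I promoters through RFX, CREB/ATF and NF-Y proteins, and interferons induce most genes of the pathway.

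The 6 libraries were close in the summed FPKM of listed genes (fragments scaled to transcript length and library size). The sums lay between 97.8% and 100.5% of the DMSO library of the same line. Scaling to library size largely makes such sums alike, so they do not show equal RNA per cell. All 9 Ewing sarcoma markers looked for, CD99, FLI1 and NKX2-2 among them, were above 1 FPKM in every library. Of 12 class II and leukocyte markers, 11 were in the table, and their summed level was 3.36 to 4.60 FPKM in A673 and 9.30 to 14.7 FPKM in SKNMC, where PTPRC (CD45) alone gave 7.90 to 13.1 FPKM. The T cell marker CD3E was listed at 0 in all 6 libraries. The part of these markers in the results below was not tested.

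The upstream sequences of the heavy chains and B2M are shown first because they carry the letters of the module that NLRC5 works through, and those of TAP1, TAP2 and TAPBP because they carry interferon-response letters. RefSeq sequences (GRCh38.p14) were matched for 7 of the 9 genes, with 2 start sites each for TAP1 and ERAP1, and HLA-E and NLRC5 had no entry. Each line gives the 250 bases before the start site, 5′ to 3′ on the gene's strand, with the first start site for TAP1. Capitals mark matches on either strand to 4 patterns, namely GAAANNGAA (the core of an interferon-stimulated response element), GGANTNNCC (the core of an NF-kB site), TGACG (the core of the X2 element bound by CREB/ATF) and CCAAT (the NF-Y box). Overlapping matches run together.
HLA-B: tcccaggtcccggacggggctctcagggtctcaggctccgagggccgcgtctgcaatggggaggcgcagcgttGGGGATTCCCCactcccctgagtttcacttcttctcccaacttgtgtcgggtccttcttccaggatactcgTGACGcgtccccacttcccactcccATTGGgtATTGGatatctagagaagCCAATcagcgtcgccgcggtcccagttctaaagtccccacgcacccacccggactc
HLA-C: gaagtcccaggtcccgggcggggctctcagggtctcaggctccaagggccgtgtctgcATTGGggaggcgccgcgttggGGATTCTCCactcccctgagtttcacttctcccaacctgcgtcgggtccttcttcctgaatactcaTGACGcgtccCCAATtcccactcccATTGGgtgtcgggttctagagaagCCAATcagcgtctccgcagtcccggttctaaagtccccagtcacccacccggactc
B2M: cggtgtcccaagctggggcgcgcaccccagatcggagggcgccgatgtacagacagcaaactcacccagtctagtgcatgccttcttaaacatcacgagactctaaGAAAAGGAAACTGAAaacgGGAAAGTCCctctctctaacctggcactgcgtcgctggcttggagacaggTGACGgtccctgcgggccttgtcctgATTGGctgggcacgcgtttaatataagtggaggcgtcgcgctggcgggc
TAP1: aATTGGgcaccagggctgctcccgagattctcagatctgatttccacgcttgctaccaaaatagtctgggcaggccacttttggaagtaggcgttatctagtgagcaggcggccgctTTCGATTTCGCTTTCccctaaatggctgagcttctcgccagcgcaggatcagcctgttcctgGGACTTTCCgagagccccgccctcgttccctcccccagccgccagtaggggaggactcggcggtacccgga
TAP2: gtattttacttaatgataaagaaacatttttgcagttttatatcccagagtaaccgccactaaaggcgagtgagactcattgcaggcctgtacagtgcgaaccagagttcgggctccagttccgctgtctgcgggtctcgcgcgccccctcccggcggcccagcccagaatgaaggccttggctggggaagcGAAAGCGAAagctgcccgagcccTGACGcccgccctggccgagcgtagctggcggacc
TAPBP: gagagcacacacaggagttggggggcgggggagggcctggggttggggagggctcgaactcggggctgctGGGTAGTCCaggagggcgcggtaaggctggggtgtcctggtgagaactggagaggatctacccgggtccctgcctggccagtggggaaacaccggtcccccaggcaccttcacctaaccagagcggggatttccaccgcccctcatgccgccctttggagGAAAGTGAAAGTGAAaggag

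The windows lie at chr6:31357180-31357429 for HLA-B, chr6:31272093-31272342 for HLA-C, chr6:32853705-32853954 for TAP1, chr6:32838740-32838989 for TAP2 and chr6:33314079-33314328 for TAPBP, all on the minus strand, and at chr15:44711267-44711516 on the plus strand for B2M. HLA-B and HLA-C were identical at 226 of 254 aligned positions (88.98%). Both hold TGACG about the same distance from the start, at -106 to -102 in HLA-B and -105 to -101 in HLA-C, and a CCAAT at -56 to -52, and in B2M TGACG stands at -75 to -71. GAAANNGAA was found in B2M, TAP1, TAP2 and TAPBP, and in neither heavy chain gene nor ERAP1. In B2M, TAP1 and TAPBP it occurs as 2 overlapping matches. The pattern fixes the order of its letters, and other arrangements were not searched for. HLA-B and HLA-C both hold gagtttcacttct shortly after the marked GGANTNNCC match, which GAAANNGAA does not match on either strand. The lack of a match in the heavy chain genes therefore does not show that they lack an interferon-response element. Among 35116 windows of the same length, 6.88% hold GAAANNGAA, 11.99% GGANTNNCC, 21.22% TGACG and 32.01% CCAAT. The pair GGAAGGAA, the shortest repeat of the letters that ETS factors such as FLI1 bind, is in 3.064% of windows and in none of those of these genes. These matches are letters in a window and were not tied to binding here.

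With THZ1, none of the 9 genes changed 2-fold in either line at either dose, while many other active genes were decreased that far. In SKNMC at 200 nM this depended on the processing: ribosomal protein scaling put HLA-E (-1.05), TAP1 (-1.19) and NLRC5 (-1.11) past 2-fold, 75th-percentile scaling put B2M there (1.14), and NLRC5 passed with no pseudocount. As deposited, B2M, HLA-B, HLA-C and ERAP1 were higher than with DMSO in all 4 comparisons, which in SKNMC depended on the scaling. TAPBP and NLRC5 were lower in all 4, TAPBP with a sign that another scaling turned. HLA-E, TAP1 and TAP2 differed in direction between comparisons. Fold changes are log2((FPKM + 1) with THZ1 / (FPKM + 1) with DMSO), and active genes are those above 1 FPKM in the DMSO library of the line. In A673 at 50 nM, 0 of 9 were decreased against 15.9% of 11077 active genes, and 0 of 9 were increased against 0.343%. In A673 at 200 nM the shares of active genes were 25.3% decreased and 0.126% increased, again with 0 of 9 in either direction. In SKNMC, 0 of 9 stood beside 15.8% decreased and 0.471% increased of 11896 active genes at 50 nM, and beside 27.3% and 0.462% at 200 nM. With only 9 genes, 0 decreased is not far from these shares, so the count alone does not set the 9 apart. In these bulk samples, fewer cells that make a message and less of it per cell cannot be told apart.

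The median of the 9 log2 fold changes in A673 was 0.073 (50 nM) and 0.28 (200 nM), against -0.27 and -0.40 for all active genes. In SKNMC it was -0.15 and -0.075, against -0.32 and -0.55. Above the median of all active genes stood 8 of the 9 genes in A673 at 50 nM, all 9 at 200 nM, and 7 at each dose in SKNMC. Higher than with DMSO, by any amount, were 5 of 9 in A673 at 50 nM (29.9% of active genes), 7 at 200 nM (29.6%), 4 in SKNMC at 50 nM (27.0%) and 4 at 200 nM (19.2%). Of genes active in both lines, 4 of the 9 (44.4%) were higher in all 4 comparisons against 1060 of 10574 (10.0%), and 2 of the 9 (22.2%) were lower in all 4 against 52.9%. The comparisons of a line share its DMSO library, so the doses are not independent of each other.

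The FPKM values carry no added standard, and the direction of small differences depended on how libraries were scaled. Rescaling by the 75th percentile of active genes shifted the overall median by 0.22 and 0.32 in A673 and by 0.25 and 0.48 in SKNMC (50 and 200 nM), and rescaling by 86 ribosomal protein genes shifted it by -0.20 and -0.29 and by -0.28 and -0.45. Of the 36 fold changes of the 9 genes, 17 kept their sign under all 3 scalings tried. A gene's place among all active genes is given below as a percentile for this reason.

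**Figure D1:**
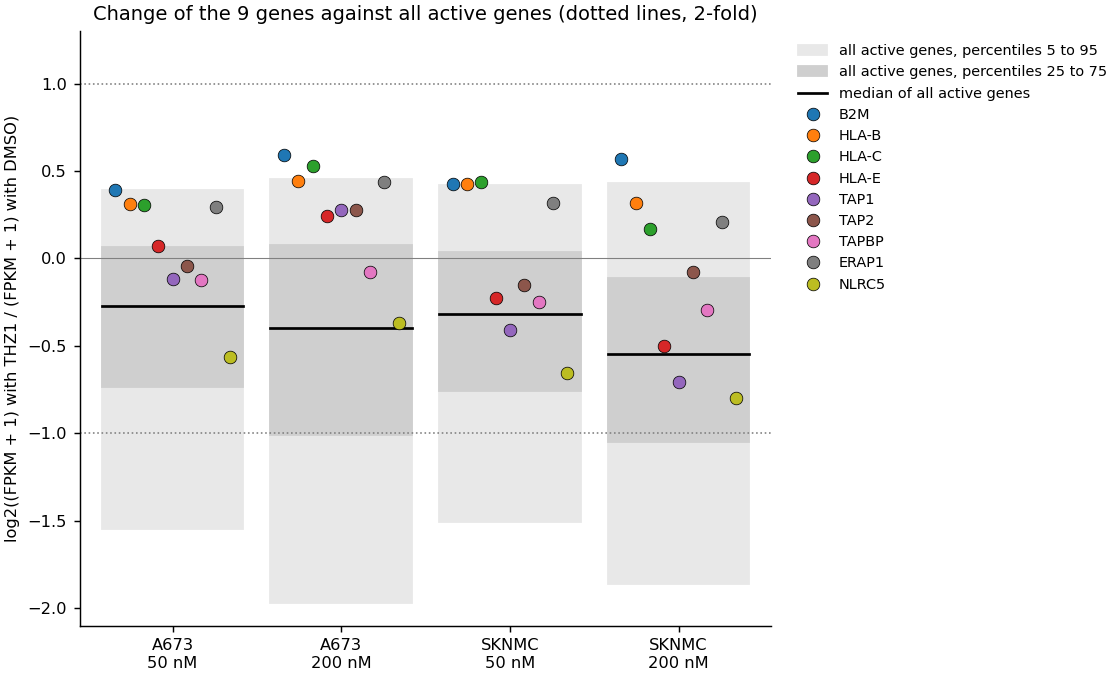
Log2 fold change of each of the 9 genes with THZ1 against DMSO (y axis, FPKM with 1 added) in the 4 comparisons (x axis), each point from 1 THZ1 and 1 DMSO library; light and dark grey bands hold percentiles 5 to 95 and 25 to 75 of all active genes, the black line is their median, and dotted lines mark 2-fold. All points lie between the dotted lines, and on the deposited scale B2M, HLA-B, HLA-C and ERAP1 lie above 0 in each comparison. Ribosomal protein scaling undid this in SKNMC, for each of them at 200 nM and for ERAP1 also at 50 nM.

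B2M (ENSG00000166710, chr15:45003674-45011075, hg19) was among the most abundant messages in both lines. In A673 it measured 2371 FPKM with DMSO, 3115 FPKM with 50 nM and 3576 FPKM with 200 nM THZ1. In SKNMC it measured 1712, 2302 and 2539 FPKM in the same order. The level stood higher at each dose than at the one below in both lines. The log2 fold changes were 0.39 and 0.59 in A673 and 0.43 and 0.57 in SKNMC, at percentiles 95, 98.4, 95.2 and 97.0 of active genes. The share of B2M in all listed FPKM went from 0.517% to 0.689% and 0.775% in A673, and from 0.370% to 0.503% and 0.561% in SKNMC. Its rank among all genes was 4, 3 and 3 in A673 and 16, 14 and 15 in SKNMC. Under ribosomal protein scaling the SKNMC value at 200 nM was -0.0090, and in the other comparisons B2M remained higher with THZ1 under each scaling.

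HLA-B (ENSG00000234745, chr6:31321648-31324965) and HLA-C (ENSG00000204525, chr6:31236525-31239907) encode classical heavy chains. HLA-B measured 3.63, 4.75 and 5.30 FPKM in A673 with DMSO, 50 nM and 200 nM THZ1, and 47.4, 64.1 and 59.3 FPKM in SKNMC. HLA-C measured 65.7, 81.4 and 95.3 FPKM in A673 and 117.8, 160.2 and 132.4 FPKM in SKNMC. For both genes the DMSO library was the lowest of its line, and the highest library was 200 nM in A673 and 50 nM in SKNMC. The log2 fold changes of HLA-B were 0.31 and 0.44 in A673 and 0.43 and 0.32 in SKNMC, at percentiles 92.2, 94.6, 95.2 and 92.4. Those of HLA-C were 0.30 and 0.53 in A673 and 0.44 and 0.17 in SKNMC, at percentiles 91.9, 97.2, 95.4 and 87.7. Both were higher with THZ1 under every scaling except in SKNMC at 200 nM, where ribosomal protein scaling gave -0.25 for HLA-B and -0.41 for HLA-C. The heavy chain genes are near-copies of each other and reads can fall on more than 1 of them, so the split between them is uncertain.

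HLA-E (ENSG00000204592, chr6:30457243-30461982) encodes the non-classical heavy chain read by NKG2A on natural killer cells. It measured 33.1, 34.9 and 39.4 FPKM in A673 and 36.5, 31.0 and 25.5 FPKM in SKNMC. The levels with DMSO were close in the lines, and after THZ1 they lay on opposite sides of DMSO. The log2 fold changes were 0.073 and 0.24 in A673 and -0.23 and -0.50 in SKNMC, but ribosomal protein scaling made all 4 negative and 75th-percentile scaling made all 4 positive. Against the other active genes HLA-E stood at percentiles 75.7 and 84.8 in A673 and 56.7 and 52.5 in SKNMC, above the middle in each.

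TAP1 (ENSG00000168394, chr6:32812985-32821755) and TAP2 (ENSG00000204267, chr6:32789609-32806557) encode the subunits of the peptide transporter. TAP1 measured 3.75, 3.37 and 4.77 FPKM in A673 and 10.6, 7.76 and 6.13 FPKM in SKNMC. In SKNMC each dose was lower than the one before it, to 57.7% of DMSO at 200 nM, and in A673 the highest library was the one with 200 nM. The log2 fold changes of TAP1 were -0.12 and 0.28 in A673 and -0.41 and -0.70 in SKNMC. Its percentiles among active genes were 61.1 and 86.8 in A673 and 44.4 and 41.4 in SKNMC. In SKNMC TAP1 thus lay a little below the middle of active genes, whose medians were -0.32 and -0.55. The SKNMC values were negative under every scaling, and those of A673 changed sign, to 0.081 at 50 nM under 75th-percentile scaling and to -0.0089 at 200 nM under ribosomal protein scaling. TAP2 measured 10.2, 9.85 and 12.6 FPKM in A673 and 9.10, 8.09 and 8.58 FPKM in SKNMC. Its log2 fold changes were -0.045 and 0.28 in A673 and -0.15 and -0.075 in SKNMC, with signs that depended on the scaling in each comparison. The percentiles of TAP2 were 66.5, 86.7, 62.1 and 76.9 in the same order. The ratio of TAP2 to TAP1 was 2.72, 2.92 and 2.64 in A673 and 0.857, 1.04 and 1.40 in SKNMC, so that the transporter messages stood nearer to each other in level in SKNMC.

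TAP1 lies wholly within the span of PSMB9, which is on the other strand and covers all of its 8771 bases, and whether the counting used strand is not given in the sources used here. PSMB9, which takes the place of a catalytic subunit in the immunoproteasome, measured 1.01, 1.11 and 1.73 FPKM in A673 and 18.1, 12.6 and 10.9 FPKM in SKNMC. It thus differed from DMSO in the same direction as TAP1 in SKNMC and at 200 nM in A673. How far reads of this pair were shared was not tested. The second TAP2 row, a transcript of the same span, held 0.192 to 0.688 FPKM. ERAP1 overlaps CAST by 18780 bases on the other strand, and CAST is listed at 0 in all 6 libraries.

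TAPBP (ENSG00000231925, chr6:33267470-33282164), the tapasin gene, measured 28.2, 25.8 and 26.6 FPKM in A673 and 26.6, 22.3 and 21.6 FPKM in SKNMC. Its log2 fold changes were small and negative, at -0.12 and -0.078 in A673 and -0.25 and -0.29 in SKNMC, and all 4 turned positive under 75th-percentile scaling. ERAP1 (ENSG00000164307, chr5:96096520-96143803) measured 18.8, 23.3 and 25.9 FPKM in A673 and 18.9, 23.9 and 22.0 FPKM in SKNMC. Like HLA-B and HLA-C, the trimming enzyme was lowest with DMSO in each line, with log2 fold changes of 0.29 and 0.44 in A673 and 0.32 and 0.21 in SKNMC, which ribosomal protein scaling turned to -0.0010 and -0.34 in SKNMC. Its percentiles were 91.3, 94.3, 91.4 and 89.0, while those of TAPBP were 61.0, 66.2, 55.2 and 64.7.

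NLRC5 (ENSG00000140853, chr16:57023396-57117443), the coactivator of class I promoters, had the smallest FPKM of the 9 in every library. It measured 1.94, 0.990 and 1.28 FPKM in A673 and 3.23, 1.68 and 1.43 FPKM in SKNMC. Every THZ1 library was below the DMSO library of its line, at 50.9% and 65.9% of its FPKM in A673 and 52.0% and 44.4% in SKNMC. The log2 fold changes were -0.56 and -0.37 in A673 and -0.66 and -0.80 in SKNMC, negative under each scaling. With no pseudocount NLRC5 passed 2-fold in SKNMC at 200 nM. Among active genes it stood at percentiles 32.9, 51.4, 29.6 and 36.6, so that it lay near or below the middle of active genes. The pseudocount weighs most on this gene, the lowest of the 9.

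**Figure D2:**
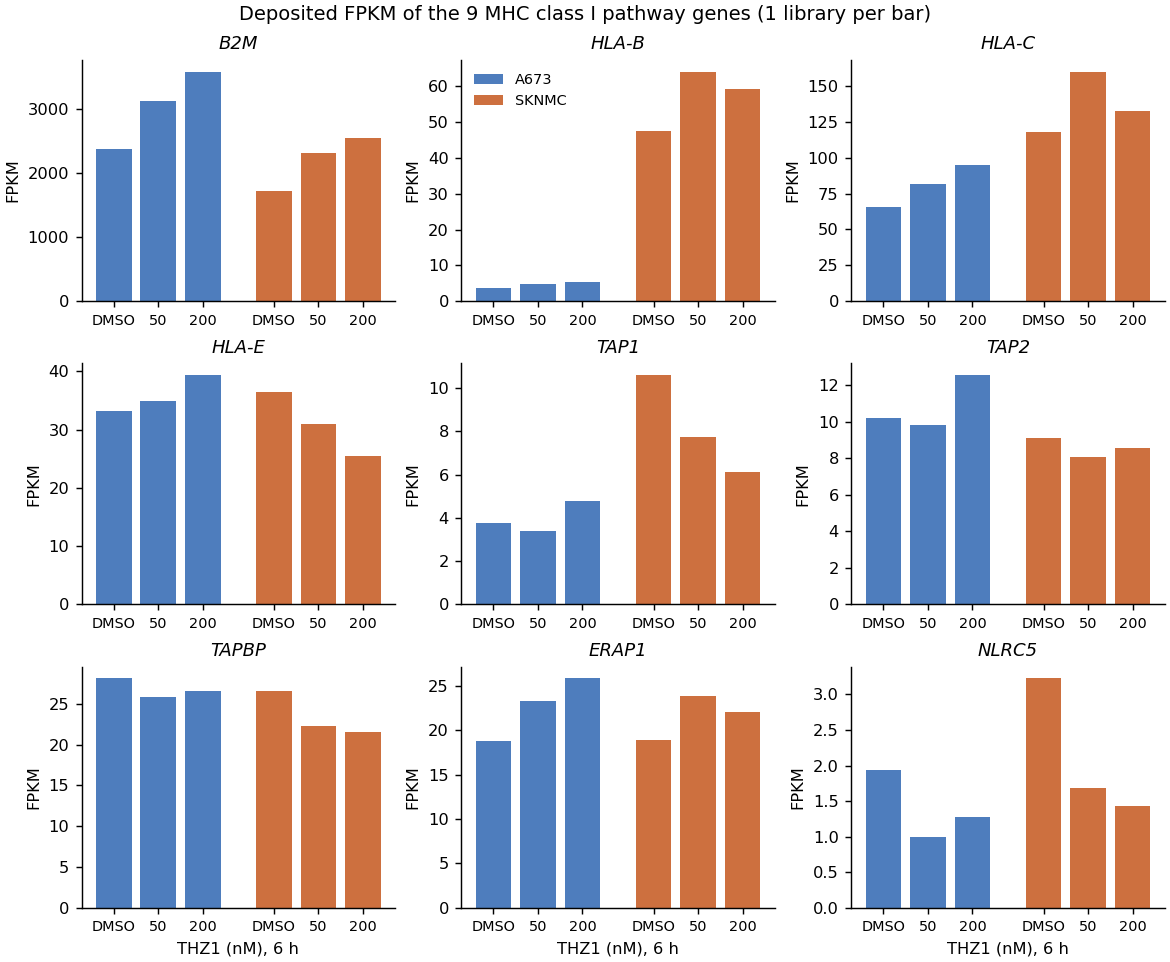
FPKM of each of the 9 genes (y axis from 0, a separate scale per gene) with DMSO, 50 nM and 200 nM THZ1 (x axis) in A673 (blue) and SKNMC (orange), with 1 library per bar and no error bar. B2M, HLA-B, HLA-C and ERAP1 are lowest with DMSO in both lines, NLRC5 is highest with DMSO in both, and HLA-E and TAP1 are lower at each higher dose in SKNMC and not in A673, on the deposited scale.

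The step between the doses differed in sign between the lines for most of the 9 genes. In A673 all 9 genes were higher at 200 nM than at 50 nM, against 48.3% of active genes. In SKNMC 2 of the 9 were higher at 200 nM, B2M and TAP2, against 37.9%. The median log2 step from 50 to 200 nM was 0.20 in A673 and -0.11 in SKNMC, while that of all active genes was -0.019 and -0.14. In SKNMC this count depended on the scaling, at 7 of 9 with the 75th percentile and 0 of 9 with the ribosomal protein genes. The fold change was larger (or less negative) in A673 than in SKNMC for 5 of 9 genes at 50 nM, against 53.4% of genes active in both lines, and for 9 of 9 at 200 nM, against 61.9%. The count at 200 nM depended on the scaling. With the 75th percentile, B2M had 0.97 in A673 and 1.14 in SKNMC, and HLA-B 0.77 and 0.88. As deposited, the differences of B2M (0.024) and HLA-B (0.13) stood at percentiles 40.4 and 50.3, and the median of all genes was 0.12. At 200 nM the largest differences between the lines were 0.98 for TAP1, at percentile 98.3 of all genes, and 0.74 for HLA-E, at percentile 94.2. With 1 library per condition these differences between lines were not tested.

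With DMSO the lines held HLA-B at different levels. HLA-B was 13.1-fold higher in FPKM in SKNMC than in A673 with DMSO (3.63 against 47.4 FPKM), a log2 difference of 3.39 with 1 added. TAP1 was the other gene past 2-fold, with a log2 difference of 1.29, and it was under 2-fold with ribosomal protein scaling. Thus 2 of 9 were at least 2-fold higher in SKNMC, against 15.0% of 12399 genes active in either line, and 0 of 9 at least 2-fold lower, against 8.42%. The log2 differences of the rest were 0.83 for HLA-C, 0.52 for NLRC5, 0.14 for HLA-E, 0.0070 for ERAP1, -0.078 for TAPBP, -0.15 for TAP2 and -0.47 for B2M. Whether reads from each line's own HLA alleles aligned equally well to the reference was not tested.

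The light chain message was far above those of HLA-B and HLA-C in both lines. B2M per summed HLA-B and HLA-C was 34.2, 36.2 and 35.5 in A673 with DMSO, 50 nM and 200 nM THZ1, and 10.4, 10.3 and 13.2 in SKNMC. HLA-B made up 5.24%, 5.51% and 5.27% of the HLA-B and HLA-C sum in A673 and 28.7%, 28.6% and 31.0% in SKNMC. Within each line this share was thus close in the 3 libraries. In FPKM the order with DMSO in A673 was B2M, HLA-C, HLA-E, TAPBP, ERAP1, TAP2, TAP1, HLA-B and NLRC5. In SKNMC HLA-B stood right behind B2M and HLA-C, and TAP1 above TAP2. With 1 library each, neighbours such as TAP1 and HLA-B in A673 (3.75 and 3.63 FPKM) cannot be put in order.

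Most interferon-stimulated genes were higher in SKNMC, as HLA-B was. Of 23 active genes of the list, 14 were at least 2-fold higher in SKNMC with DMSO and 2, IFIT5 and PARP14, at least 2-fold lower, against 15.0% and 8.42% of genes active in either line. BST2, a membrane protein that tethers virus particles, measured 0.496 FPKM in A673 and 30.8 FPKM in SKNMC. GBP2, an interferon-induced GTPase, measured 0.795 and 21.2 FPKM, and the RNA sensor IFIH1 0.398 and 8.98 FPKM. The summed class II and leukocyte markers given above were also higher in SKNMC, mainly through PTPRC (0.0201 FPKM in A673 and 10.2 FPKM in SKNMC). Of the 3 active markers, PTPRC alone was at least 2-fold higher in SKNMC, and CD68 was at least 2-fold lower (2.29 and 0.215 FPKM). The part of these markers in the difference was not tested. Of the 5 immunoproteasome and PA28 genes, PSMB9 alone passed 2-fold with 1 added, with a log2 difference of 3.24. PSMB8 had 0.99 (8.70 FPKM in A673 and 18.2 FPKM in SKNMC). It lay just under 2-fold with 1 added and just above without it.

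**Figure D3:**
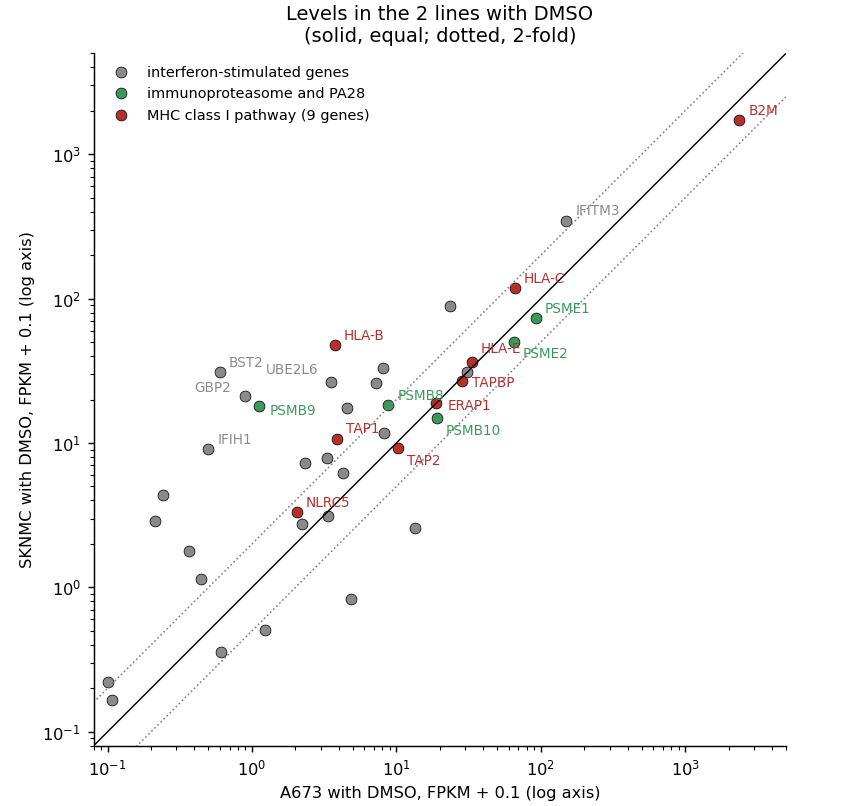
FPKM with DMSO in A673 (x axis) and SKNMC (y axis), both with 0.1 added on log axes, for the 9 class I genes (red), the immunoproteasome and PA28 genes (green) and the interferon-stimulated genes (grey), with 1 library per line; the solid line marks equal levels and the dotted lines 2-fold. HLA-B and TAP1 lie above the upper dotted line with PSMB9, BST2 and GBP2, and B2M lies below the solid line.

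The other genes of peptide supply and loading were also within 2-fold of DMSO on the deposited scale. No gene passed 2-fold in any of the 4 comparisons. This covers 5 active immunoproteasome and PA28 genes, 3 constitutive catalytic proteasome subunits and 5 active loading chaperone genes. The shares of all active genes decreased were 15.8% to 27.3%. Beside such shares, 0 of 3 or 0 of 5 genes says little about a list. With ribosomal protein scaling, 2 immunoproteasome genes were decreased in SKNMC at 200 nM. PDIA3, the oxidoreductase of the loading complex, had log2 fold changes of 0.37 and 0.59 in A673 and 0.38 and 0.40 in SKNMC, and PSME1, of the proteasome activator PA28, 0.30 and 0.61 and 0.26 and 0.17. PSMB9 had 0.067 and 0.44 in A673 and -0.49 and -0.67 in SKNMC. The list medians were 0.067, 0.44, -0.073 and -0.11 for the immunoproteasome and 0.13, 0.34, -0.12 and 0.17 for the chaperones, each above the median of all active genes.

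Among the other class I and class I-like heavy chains, FCGRT, the heavy chain of the neonatal Fc receptor, had log2 fold changes of 0.14 and 0.44 in A673 and 0.062 and 0.30 in SKNMC. Past 2-fold were CD1D, a lipid-presenting molecule, in A673 at 50 nM (3.58 to 1.20 FPKM), MR1, which presents vitamin B metabolites, in SKNMC at both doses (4.26 to 0.846 and 1.62 FPKM), and the stress ligand MICB in SKNMC at 200 nM (13.2 to 4.06 FPKM). That is 1, 0, 1 and 2 of 7 active genes in A673 at 50 and 200 nM and SKNMC at 50 and 200 nM, all decreased, near the shares of all active genes (15.9%, 25.3%, 15.8% and 27.3%).

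Several genes for factors that bind the class I promoter module fell with THZ1. Of 8 active RFX, NF-Y and CREB/ATF genes, 4 and 5 were decreased at least 2-fold in A673 at 50 and 200 nM, and 3 and 4 in SKNMC, where the shares of all active genes were 15.9%, 25.3%, 15.8% and 27.3%. The list medians were -1.0 and -1.04 in A673 and -0.57 and -1.02 in SKNMC, and 7 of the 8 were lower in all 4 comparisons, as were 52.9% of genes active in both lines. In SKNMC at 200 nM the count decreased was 1 with 75th-percentile and 7 with ribosomal protein scaling. RFXAP, a subunit of the RFX complex, measured 15.9, 2.30 and 2.17 FPKM in A673 and 21.8, 6.24 and 6.75 FPKM in SKNMC. CREB1, a factor of the X2 element, measured 15.7, 3.99 and 3.45 FPKM in A673 and 20.4, 4.62 and 6.55 FPKM in SKNMC. Both passed 2-fold in all 4 comparisons, as 8.70% of genes active in both lines did. NFYA, the CCAAT-binding subunit of NF-Y, fell at 200 nM, from 19.3 to 3.56 FPKM in A673 and from 19.4 to 7.07 FPKM in SKNMC. CIITA, the class II counterpart of NLRC5, was below 1 FPKM in every library.

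Of 16 interferon receptor, JAK, STAT and IRF genes, 4 and 5 were decreased in A673 at 50 and 200 nM (15.9% and 25.3% of all active genes) and 4 and 6 in SKNMC (15.8% and 27.3%), with none increased. These counts were not far from the shares of all active genes, and the last was 3 with 75th-percentile and 9 with ribosomal protein scaling. IRF2, a factor that binds interferon-response elements, measured 11.4, 2.12 and 1.13 FPKM in A673 and 12.5, 2.61 and 1.07 FPKM in SKNMC. IRF1, an activator of the same element, measured 2.32, 0.540 and 0.566 FPKM in A673 and 5.25, 1.89 and 2.05 FPKM in SKNMC. IRF9, a subunit of the complex downstream of type I interferon, and IFNAR1, a chain of its receptor, passed 2-fold in all 4 comparisons as well. Of the 5 NF-kB subunits, 2, 2, 0 and 2 were decreased in the same order of comparisons, beside the same shares of active genes, and so few genes say little about the group. RELA, its main activating subunit, measured 39.2, 15.8 and 14.3 FPKM in A673 and 35.2, 22.0 and 11.6 FPKM in SKNMC.

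The interferon-stimulated genes did not move as 1 group. Decreased at least 2-fold were 4 and 3 of 16 active genes in A673 and 4 and 6 of 21 in SKNMC, with none increased, near the shares of all active genes (15.9%, 25.3%, 15.8% and 27.3%). In SKNMC at 200 nM the count was 3 with 75th-percentile and 10 with ribosomal protein scaling. IFIT3, IFIT5 and PARP9 passed in all 4 comparisons. IFIT5, an RNA-binding antiviral protein, measured 13.3, 2.37 and 1.06 FPKM in A673 and 2.48, 0.642 and 0.189 FPKM in SKNMC. IFI6 and IFITM3 were on the other side, with log2 fold changes of 0.46 and 0.78 for IFI6 in A673 and 0.20 and 0.46 for IFITM3. The list medians were -0.16 and -0.10 in A673 and -0.30 and -0.45 in SKNMC.

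**Figure D4:**
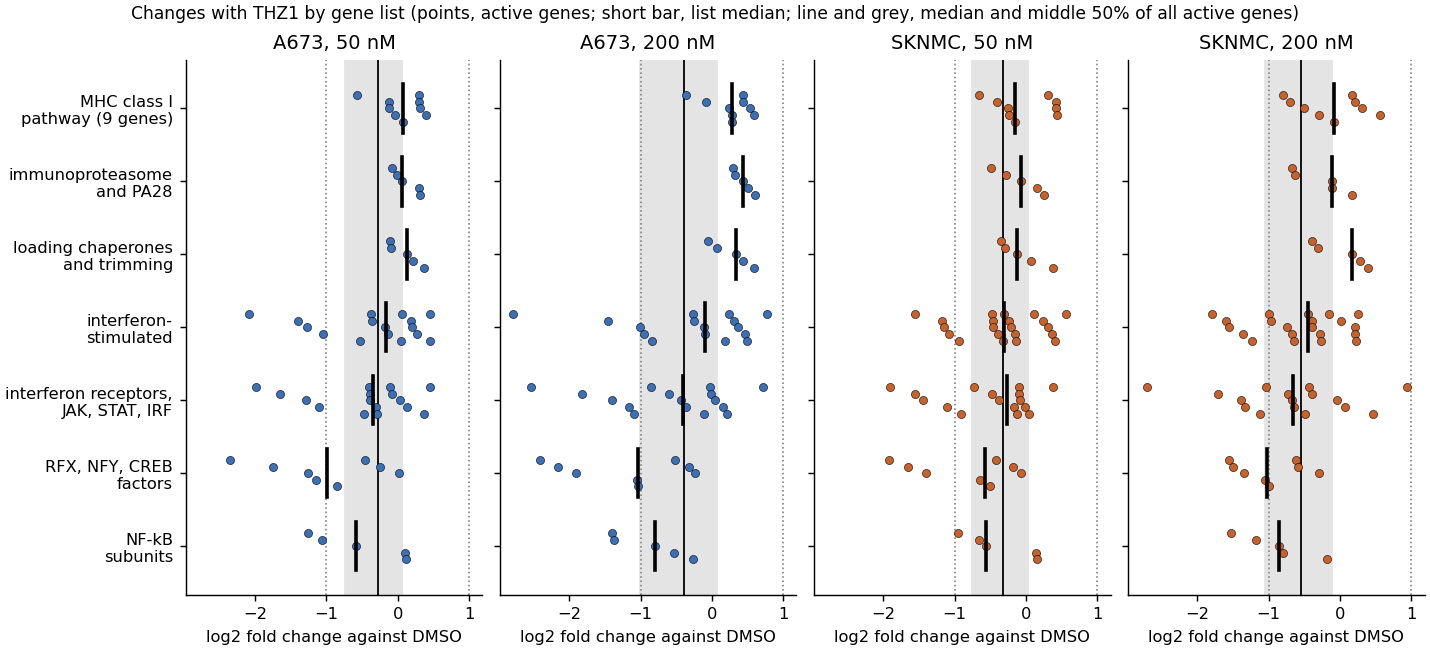
Log2 fold change with THZ1 against DMSO (x axis) of the active genes of each list (rows) in the 4 comparisons (panels), 1 point per gene, blue for A673 and orange for SKNMC; short bars are list medians, the vertical black line and grey band are the median and middle 50% of all active genes, and dotted lines mark 2-fold. On the deposited scale the 9 class I genes, the immunoproteasome and the chaperones stay inside 2-fold, while RFX, NFY and CREB factors, interferon signalling genes and interferon-stimulated genes have points beyond -1.

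Of the 9 genes, 6 lie in the MHC region on chromosome 6, at chr6:30457243-33282164 (hg19, 2.82 Mb), with 138 other listed genes. The other active genes of this stretch, 76 in A673 and 78 in SKNMC, had median log2 fold changes of -0.30 and -0.10 in A673 and -0.43 and -0.34 in SKNMC. Higher than with DMSO were 21.1% and 44.7% of them in A673 and 21.8% and 25.6% in SKNMC. At least 2-fold decreased were 11, 9, 11 and 13 of them in the same order (14.5%, 11.8%, 14.1% and 16.7%), against 15.9%, 25.3%, 15.8% and 27.3% of all active genes. At least 2-fold increased were 2 of these other genes in each comparison, against 0.343%, 0.126%, 0.471% and 0.462% of all active genes. None of the 6 class I genes passed 2-fold, and at such shares this does not set them apart from their neighbours.

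The genes nearest in pattern to the class I genes were found by the Euclidean distance over the 6 libraries between log2(FPKM + 1), centred on each gene, and the mean profile of the 8 genes above 1 FPKM in all libraries. This mean does not stand for each of the 8. Their log2 differences between the lines with DMSO ran from -0.47 for B2M to 3.39 for HLA-B, and their directions with THZ1 differed. Among 4021 genes above 10 FPKM in all 6 libraries, the nearest were RPS6KB2 at a distance of 0.0888, PSMB3 at 0.114, UFC1 at 0.116, NXT2 at 0.125 and ARF4 at 0.130, against a median distance of 1.10. RPS6KB2 measured 31.0, 34.3 and 37.8 FPKM in A673 and 44.8, 49.4 and 45.8 FPKM in SKNMC. Like the profile, it was higher at each dose in A673 and peaked at 50 nM in SKNMC. At 200 nM in SKNMC the profile lay below its DMSO value (0.19 against 0.22), and RPS6KB2 did not. The peak was not shared by NXT2, highest in SKNMC with DMSO (20.2 FPKM), or PSMB3, highest there at 200 nM (184.5 FPKM).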

How the data were processed

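RNA-seq of 6 libraries was analysed, 1 per condition, with groups taken from the sample labels. TruSeq libraries were sequenced as paired ends of 100 bp, and the authors aligned the reads to hg19 by STAR with Ensembl 75 annotation and obtained FPKM from StringTie; the submitters' processing notes name STAR and Cufflinks, without versions. The deposited FPKM values cover 20311 protein-coding and 7109 lincRNA genes. The title of the table speaks of averages, and each column was treated as 1 library. The authors also deposited 4 columns of log2 fold changes, which were not used. Read counts are not part of the table and depth is unknown. Relative depth, from the commonest ratio of low values, was 89% to 97% of DMSO, but at most 2.22% of low genes sat at that ratio, so it is a rough value.

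Fold changes were computed with Python 3.11.15, pandas 2.3.3 and numpy 2.4.6 as log2 ratios of FPKM with a pseudocount of 1, which understates the change of low genes, and genes above 1 FPKM with DMSO (in either line for the comparison of lines) were called at 2-fold. No test across libraries was possible. The fold calculation was tested on simulated data. Coordinates of genes are those of the table (hg19), and upstream sequences are from RefSeq (GRCh38.p14), with no conversion between builds. Named genes are the 9, list genes past 2-fold in any comparison, above 10 FPKM with DMSO or needed to describe a list, and the 5 nearest in pattern. The 9 genes and the lists were chosen with earlier results of these data known. The counts of genes higher than with DMSO, the step between doses, the difference between lines, the stretch of chromosome 6 and the sequence patterns were chosen after the values were seen. Values of some list genes are not reported here. Alternatives were pseudocounts of 0.1 and none, other filters on low values, 3 scalings, summed rows of a symbol and a 1.5-fold threshold.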

Additional observations from a re-analysis of the deposited data

Results flagged for a closer look

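HLA-E lay on opposite sides of DMSO in the lines. In A673 its log2 fold changes were 0.073 with 50 nM and 0.24 with 200 nM THZ1, both above DMSO, and in SKNMC they were -0.23 and -0.50, both below. There is 1 library per condition, and the difference was not tested. Scaling by ribosomal protein genes put HLA-E below DMSO in both lines, and scaling by the 75th percentile of active genes put it above DMSO in both.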

How the results depend on the processing

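The limits are those of 1 library per condition: no replicate error, unknown depth and no added standard. No paired analysis was possible because each condition has 1 library and the labels give no replicate numbers. Of the summary values recomputed under alternatives, 140 stayed within 1.5-fold of the reported one on the same side of 0 and 21 did not. Of the 9 genes, the counts decreased at least 2-fold in SKNMC at 200 nM were 0 as reported, 1 with a pseudocount of 0.1 and 1 with none, 3 with ribosomal protein scaling and 2 at 1.5-fold. A 1.5-fold threshold gave 1 decreased in SKNMC at 50 nM and 1 increased in A673 at 200 nM, and 75th-percentile scaling gave 1 increased in SKNMC at 200 nM. Ribosomal protein scaling moved the median to -0.15 at 50 nM and -0.0089 at 200 nM in A673. 75th-percentile scaling moved it to 0.11 and 0.44 in SKNMC, and keeping genes above 5 FPKM to 0.084 and 0.046. The number higher than with DMSO was 8 in A673 at 50 nM and 7 at both doses in SKNMC with the 75th percentile, and 4 in A673 and 0 in SKNMC at 200 nM with ribosomal protein genes. The number higher at 200 than at 50 nM in SKNMC was 7 and 0 under these scalings. With ribosomal protein genes, 1 of the 9 differed 2-fold between the lines. The causes were not tested.

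For the other lists at 200 nM in SKNMC, 75th-percentile and ribosomal protein scaling gave 1 and 7 decreased promoter factors in place of 4, 3 and 10 interferon-stimulated genes in place of 6, 0 and 4 NF-kB subunits in place of 2, and the latter scaling 2 immunoproteasome genes in place of 0. Interferon signalling genes went from 6 to 3 with the 75th percentile. In A673 at 200 nM it gave 3 promoter factors and 3 interferon signalling genes, in place of 5 each. The shares of all active genes above DMSO were 46.3% and 3.63% in SKNMC at 200 nM under these scalings.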
